A study of Mus musculus with 6 samples.

Results

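The rod phototransduction cascade is described here by 9 genes named for their role in the cascade, of 52636 genes in the count table, 32905 of which had at least 1 unique molecular identifier (UMI, a tag that lets copies of a molecule made by PCR be counted once). The 9 genes are Gnat1, Gnb1 and Gngt1 (transducin), Pde6a, Pde6b and Pde6g (phosphodiesterase 6), Cnga1 and Cngb1 (the cyclic GMP-gated channel) and Sag (rod arrestin). They were measured by droplet single-cell RNA sequencing (10x Genomics 3′ kit) in retinas of male C57BL/6J mice aged 12 months, 3 of them Dram2 wt/wt and 3 Dram2 ko/ko. The ko/ko line carries a CRISPR/Cas9 deletion of 1 exon of Dram2 that is constitutive, so every retinal cell type carries it, and no agent was given to either group. The series text speaks of choroid and of 1 library per genotype, whereas the sample labels give 3 retinas per genotype. Replicates 1 and 2 of each genotype belong to batch 2 of the deposited cell table and replicate 3 of each to batch 1.

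The retinas held 3463728 to 6563762 UMIs each, over 46375 cells. The authors' types comprised 42359 photoreceptors, 2083 interneurons, 942 glia, 246 mesenchymal cells and 116 RPE (retinal pigment epithelium) cells, and 629 cells had no type. Markers were highest in their own type for 5 of 5 photoreceptor, 7 of 7 interneuron, 5 of 6 glial, 6 of 6 mesenchymal and 4 of 5 RPE genes, and the RPE marker Best1 was at 0 in RPE cells. The 6 mesenchymal genes were Cldn5 (2166 UMIs in that class), C1qa (1609), Rgs5 (946), Cx3cr1 (260), Pecam1 (214) and Col1a2, with only 3 UMIs. The authors' label was kept, and which cells this class holds was not tested. The mitochondrial share of photoreceptor UMIs was 0.361% to 0.698% in batch 2 but 3.24% (wt/wt) and 2.71% (ko/ko) in batch 1. Dram2 itself was at 38.5 ± 16.8 CPM (UMIs scaled to a total of 1000000; SD, n = 3) in wt/wt photoreceptors and at 36.9 ± 12.9 in ko/ko photoreceptors, but the counted 3′ end lies outside the deleted exon, so these values check no label. The cell identifiers hold no barcode letters, so barcodes shared between libraries could not be counted.

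In a rod, light turns the visual pigment into an active form that loads GTP onto the alpha subunit of transducin. That subunit pulls the small inhibitory gamma subunits off phosphodiesterase 6, whose alpha and beta subunits then break down cyclic GMP, and the fall in cyclic GMP closes cation channels in the outer segment membrane. Arrestin binds the phosphorylated pigment and ends its signal. Cones run the same steps with their own transducin, phosphodiesterase, channel and arrestin genes, which served here as counterparts.

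Because the 9 genes were high and low together over cell types, the DNA before their RefSeq start sites is shown. RefSeq (GRCm38.p6) windows of 250 bases before the start are given here for 6 of the 9 genes, and matches are counted over these 6 only. RefSeq and GENCODE M21, whose gene coordinates are given further on, place some starts differently. All 250 bases of the Cnga1 window and 216 of the Gngt1 window lie inside the gene as GENCODE draws it, and the other 4 windows lie outside theirs. They were searched on both strands for letters bound by 2 photoreceptor transcription factors, TAATCC (reverse GGATTA) for CRX and TGCTGAC (reverse GTCAGCA) for NRL. The windows lie at chr1:87803430-87803679 (plus strand) for Sag, chr6:3993758-3994007 (plus) for Gngt1, chr8:95306586-95306835 (minus) for Cngb1, chr5:72642753-72643002 (minus) for Cnga1, chr5:108388123-108388372 (plus) for Pde6b and chr4:155491111-155491360 (plus) for Gnb1. Capitals mark the matches.
Sag: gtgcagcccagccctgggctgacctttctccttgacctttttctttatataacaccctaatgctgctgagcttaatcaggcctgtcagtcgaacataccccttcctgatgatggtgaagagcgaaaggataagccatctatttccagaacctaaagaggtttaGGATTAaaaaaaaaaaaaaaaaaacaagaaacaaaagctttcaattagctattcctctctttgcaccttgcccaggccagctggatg
Gngt1: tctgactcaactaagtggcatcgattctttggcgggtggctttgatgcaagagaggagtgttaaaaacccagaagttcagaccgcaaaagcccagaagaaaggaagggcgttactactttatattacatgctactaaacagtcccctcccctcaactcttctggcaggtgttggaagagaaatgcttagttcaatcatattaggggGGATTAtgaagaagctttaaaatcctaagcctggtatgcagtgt
Cngb1: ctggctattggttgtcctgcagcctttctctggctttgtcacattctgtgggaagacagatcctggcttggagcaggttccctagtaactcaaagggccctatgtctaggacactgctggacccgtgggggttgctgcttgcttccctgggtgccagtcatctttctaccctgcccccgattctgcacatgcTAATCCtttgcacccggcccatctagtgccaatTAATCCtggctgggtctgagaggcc
Cnga1: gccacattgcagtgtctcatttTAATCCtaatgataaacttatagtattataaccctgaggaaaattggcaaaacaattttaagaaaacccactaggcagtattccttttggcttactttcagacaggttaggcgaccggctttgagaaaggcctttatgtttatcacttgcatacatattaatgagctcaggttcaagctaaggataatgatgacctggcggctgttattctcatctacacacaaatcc
Pde6b: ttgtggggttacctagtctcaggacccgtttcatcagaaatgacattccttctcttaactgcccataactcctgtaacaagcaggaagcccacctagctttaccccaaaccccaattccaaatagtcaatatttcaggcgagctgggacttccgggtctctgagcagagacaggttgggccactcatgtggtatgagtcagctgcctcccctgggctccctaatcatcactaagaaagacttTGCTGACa
Gnb1: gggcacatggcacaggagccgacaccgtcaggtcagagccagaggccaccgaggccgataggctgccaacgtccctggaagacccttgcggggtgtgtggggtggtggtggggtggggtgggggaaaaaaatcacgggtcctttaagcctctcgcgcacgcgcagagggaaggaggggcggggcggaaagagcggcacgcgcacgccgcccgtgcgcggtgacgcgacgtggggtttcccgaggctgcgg
The CRX letters stood in 4 of these 6 windows, with 2 matches in Cngb1 and 1 each in Sag, Gngt1 and Cnga1, against 6.25% of 32851 windows of the same length. Of the 4 windows outside the GENCODE gene, 2 held them. The NRL letters stood in 1 of the 6, Pde6b, against 3.81% of all windows, and no window held both. The Gnb1 window held neither and carried 26 CG dinucleotides, more than 90.4% of all windows, whereas the other 5 carried 2 to 4 and the median of all windows was 6. A match is a string of letters and not a measured binding site.

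Photoreceptors held 76.4% of all UMIs of typed cells and a larger share of each cascade gene. Of the UMIs of typed cells, photoreceptors held from 92.9% (Cngb1) to 97.5% (Cnga1), with 94.8% for Gnat1, 96.3% for Gnb1 and 95.4% for Sag. The 9 genes together took 5.43% ± 0.941 (SD, n = 6 retinas) of all photoreceptor UMIs, with a range of 4.30% to 6.40%. Their share was 0.835% ± 0.123 in interneurons, 0.740% ± 0.178 in RPE cells, 0.754% ± 0.247 in glia and 0.689% ± 0.194 in mesenchymal cells. Since these counts also gave the clusters, no type was tested against another. UMIs counted at the 3′ end are not per length, and the levels below are compared within a gene only. In the annotation used here (GENCODE M21) Gnb1 and Pde6a each overlap an antisense gene (Gm13171 and Rps2-ps10) and Cnga1 a gene on its own strand (Gm5297), so reads in those stretches are uncertain.

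Photoreceptors were then divided into 40696 rods, with at most 1 UMI of the cone list Opn1sw, Opn1mw, Arr3 and Kcne2, and 910 cones, with at least 5 such UMIs that made up at least 0.5% of the cell. The remaining 753 photoreceptors lay between these limits and were left out. None of the 9 genes is in the cone list. Cones were deeper, with a median of 1730 to 2476.5 UMIs per cell by retina against 390 to 489 in rods.

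**Figure D1:**
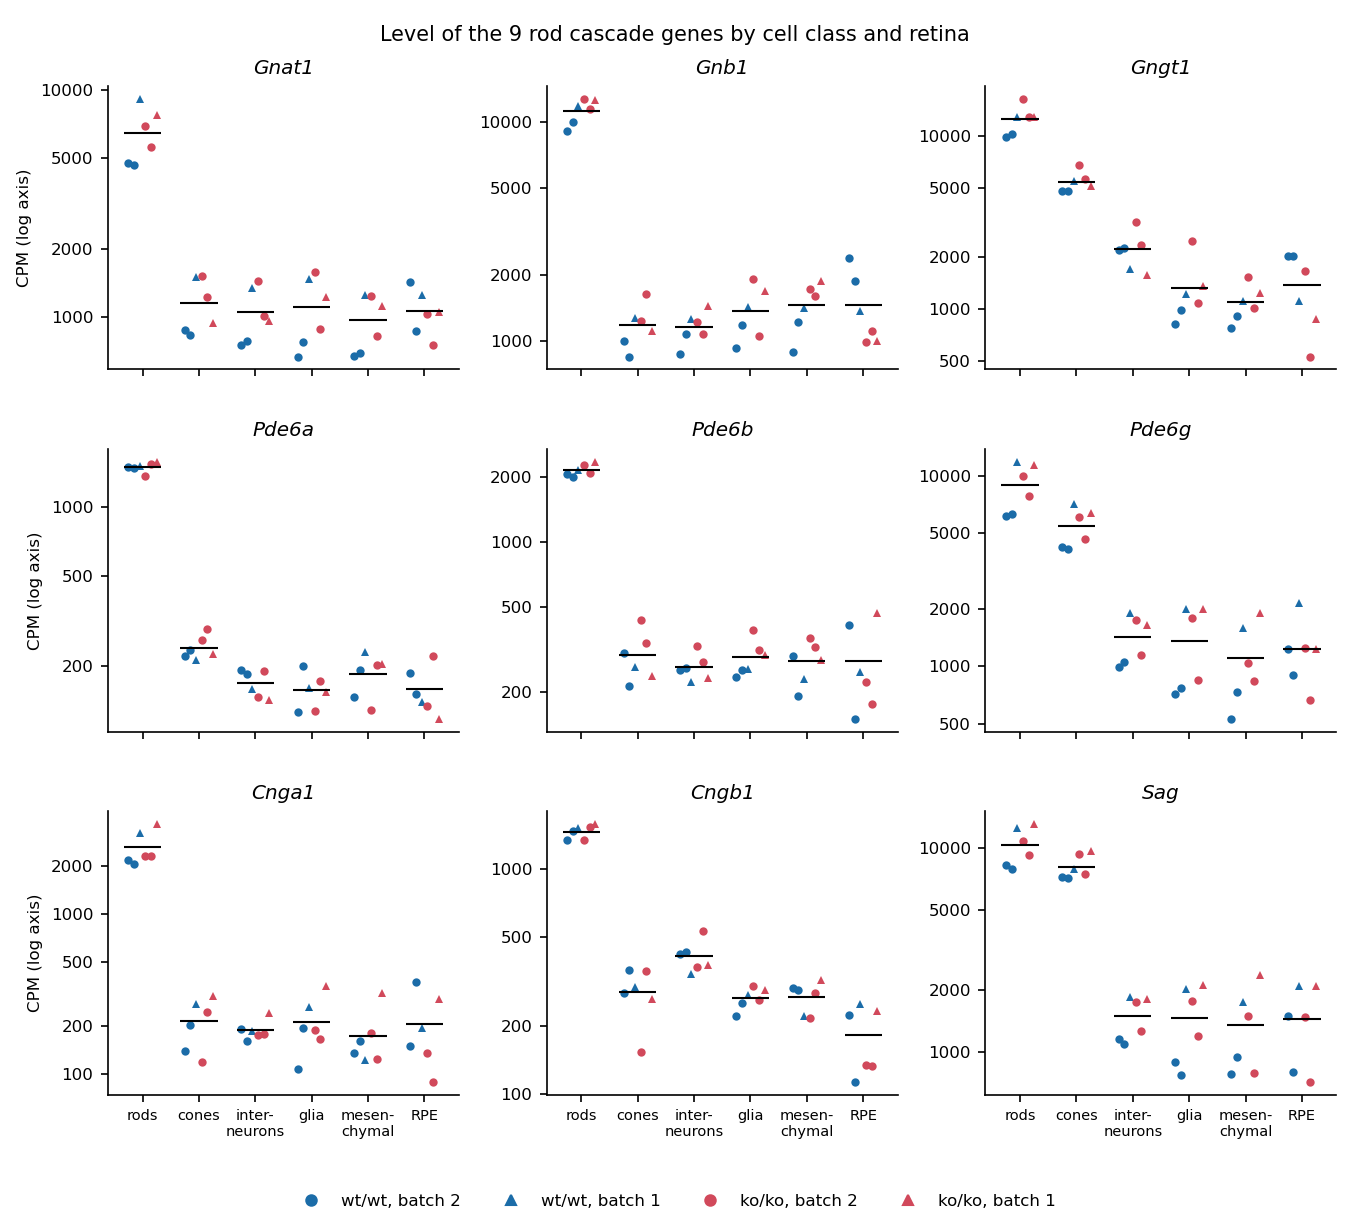
Level of each rod cascade gene (CPM of the UMIs summed per retina and class, log axis) in rods, cones, interneurons, glia, mesenchymal cells and RPE cells. Each point is a retina (blue wt/wt, red ko/ko, circles batch 2, triangles batch 1) and each line the mean of 6 retinas; rods stand highest for all 9 genes, and Sag, Pde6g and Gngt1 stay high in cones.

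The transducin genes separated in cones. Gnat1 (chr9:107674474-107679712, minus strand), the rod alpha subunit, was at 4757, 4698 and 9140 CPM in wt/wt rods and 6915, 5624 and 7777 in ko/ko rods. In cones it was at 872, 835 and 1492 CPM in wt/wt and 1518, 1227 and 943 in ko/ko retinas. Every cone value lay below every rod value, and the mean over retinas was 18.1% of the rod level. Gnb1 (chr4:155491361-155559269, plus), a beta subunit also used by other G proteins, had a mean of 11228 ± 1448 CPM in rods and of 1182 ± 272 in cones (SD, n = 6), or 10.5% of the rod level. Gngt1 (chr6:3993792-3997436, plus), the rod gamma subunit, was at 9787, 10273 and 12802 CPM in wt/wt rods and 16266, 12818 and 12831 in ko/ko rods. In cones it stood at 4773, 4794 and 5445 CPM in wt/wt and 6727, 5601 and 5138 in ko/ko retinas, which is 43.8% ± 3.30 of the rod level. The cone and rod values of Gngt1 did not overlap either, but the gap was smaller than that of the alpha and beta subunits.

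Among the phosphodiesterase genes the inhibitory subunit differed from the catalytic pair. Pde6a (chr18:61220315-61289924, plus) had 1499 ± 72.1 CPM in rods and 241 ± 29.4 in cones (SD, n = 6), and Pde6b (chr5:108388391-108432397, plus) had 2152 ± 134 and 299 ± 80.4, so cones were at 16.1% and 13.9% of the rod level. Pde6g (chr11:120447605-120453500, minus), the inhibitory gamma subunit, was at 6147, 6331 and 11904 CPM in wt/wt rods and 10010, 7863 and 11474 in ko/ko rods. Its cone levels were 4234, 4152 and 7158 CPM in wt/wt and 6070, 4641 and 6359 in ko/ko retinas. These ranges overlap between retinas, while within each retina the cone level was the lower one, at 61.6% ± 4.83 of the rod level.

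Both channel genes were low in cones. Cnga1 (chr5:72603696-72644275, minus), the pore-forming subunit, went from 2644 ± 660 CPM in rods to 214 ± 74.4 in cones, or 8.05% of the rod level. Cngb1 (chr8:95239045-95306585, minus), the modulatory subunit, went from 1468 ± 100 to 284 ± 74.0 CPM, or 19.2%. Sag (chr1:87803680-87845158, plus) was the nearest of all 9 genes to its rod level. Rods had 8264, 7897 and 12606 CPM in wt/wt and 10822, 9294 and 13139 in ko/ko retinas, and cones had 7243, 7121 and 7880 in wt/wt and 9422, 7453 and 9679 in ko/ko retinas. The cone level of Sag was the lower one in each of the 6 retinas, at 80.2% ± 10.6 of the rod level.

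In edgeR's quasi-likelihood test, with the retina as a block, 9 of 9 cascade genes were lower in cones at an adjusted p under 0.05, where 19.6% of all 10807 genes tested were lower and 20.5% higher. The median log2 difference was -2.55 over the 9 genes and -0.04 over all genes. Cnga1 had the largest difference, with -3.66 (SE 0.103, adjusted p = 7.05e-57), and Gnb1 the next, with -3.32 (SE 0.0961, adjusted p = 7.28e-56). Pde6b was at -2.94, Pde6a at -2.70, Gnat1 at -2.55 and Cngb1 at -2.42 on the log2 scale. Gngt1 differed by -1.25 (SE 0.0854, adjusted p = 2.91e-25), Pde6g by -0.76 (SE 0.0837, adjusted p = 1.46e-13) and Sag by -0.38 (SE 0.0854, adjusted p = 9.5e-05). Without the retina block the difference of Sag was -0.40 with an adjusted p of 0.118 in edgeR, and the other 8 genes stayed past the threshold. Each of the 9 genes was lower in cones in 6 of 6 retinas.

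The cone counterparts went the other way. Pde6c and Pde6h, the cone phosphodiesterase subunits, were higher in cones by 6.58 and 6.27 on the log2 scale, and Gnat2, Gngt2 and Gnb3, the cone transducin subunits, by 6.54, 6.10 and 4.71. The cone channel subunits were nearly absent from rods, so they reached the test only through the cones and are given as UMIs. Cngb3 had 29 to 154 UMIs per retina in cones and 4 to 7 in rods, and Cnga3 had 10 to 43 in cones and 0 to 3 in rods, although rods had the larger totals. Arr3, cone arrestin, is in the cone list that defined the cones, so its 6.19 describes the cut. Of 11 further genes of the cascade, 8 were lower in cones, 1 was higher and 2 were not called. Slc24a1, the rod sodium, calcium and potassium exchanger, was lower by -3.30, Gucy2f, a guanylate cyclase, by -2.94 and Guca1b, a cyclase activator, by -2.54. Guca1a, the other activator, was higher by 0.45. Rgs9, which speeds transducin shutoff, and Gucy2e, the second cyclase, had log2 differences of 0.04 and 0.01.

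**Figure D2:**
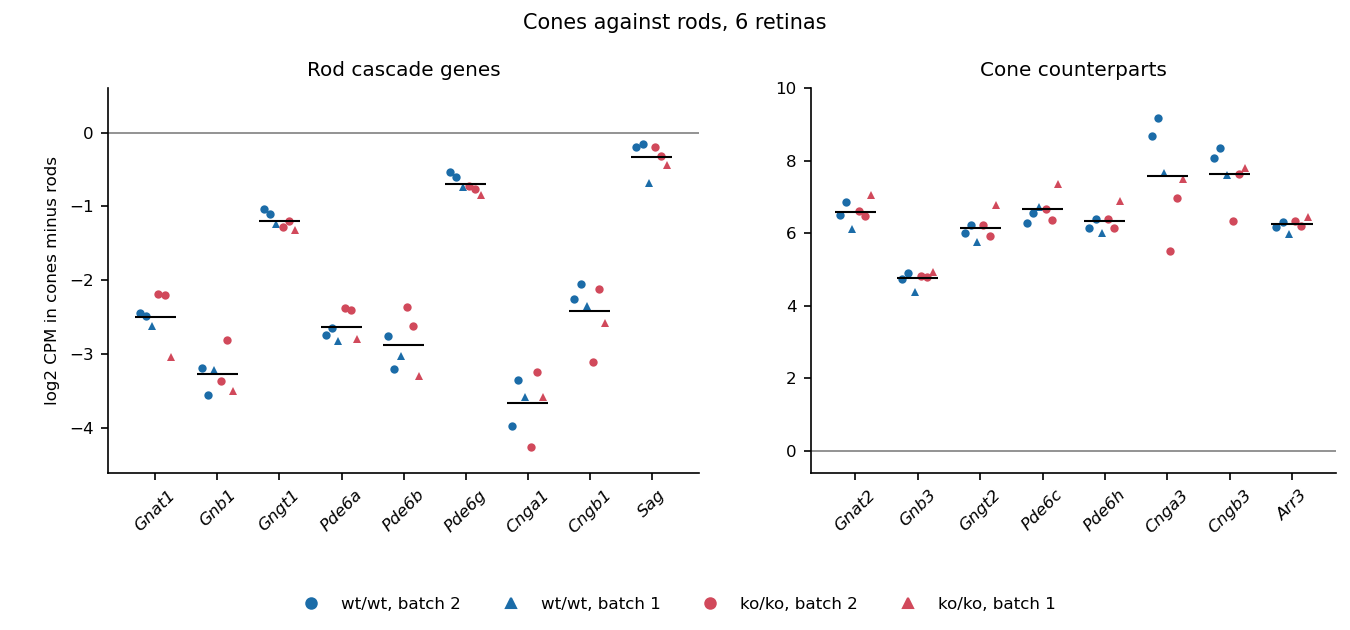
log2 CPM in cones minus rods of the same retina for the 9 rod cascade genes (left) and their 8 cone counterparts (right; the vertical scales differ). Points are retinas, coloured and shaped by genotype and batch, and lines are means. All rod cascade points lie below 0 and all counterpart points above it. Arr3 helped to define the cones, and Cnga3 and Cngb3 had only 0 to 3 and 4 to 7 rod UMIs per retina. The side of these genes is therefore not a result.

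Rod RNA set free during dissociation can enter any droplet, so a rod gene counted in another cell need not be transcribed there. The expected UMIs of each cascade gene were set on the assumption that RNA from a single source keeps its genes in a fixed ratio. Rods split by their share of the nuclear RNA Malat1, as set out below, did not keep such a ratio. Relative to the median of all genes, Gngt1 was at -1.37 on the log2 scale and Pde6a at -0.12 in those with more. Whether free rod RNA has the make-up of whole rods was not tested. The reference was a list of rod genes, Nrl, Nr2e3, Reep6, Slc24a1, Guca1b, Rp1, Prph2, Rom1 and Pdc, of which the first 5 served for cones, since cones share the others. The reference list stood in cones at 14.8% ± 1.92 (SD, n = 6) of its rod level. In the other types it stood at 13.9% ± 1.53 (interneurons), 11.9% ± 2.28 (glia), 10.7% ± 2.16 (mesenchymal cells) and 14.0% ± 3.39 (RPE cells) of its photoreceptor level. Each ratio of observed to expected UMIs below is the geometric mean over the 6 retinas, while observed and expected UMIs are sums over them, so the quotient of the sums can differ from the ratio. A ratio near 1 means that a gene stood at the level of the reference list.

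In cones, 3 of the 9 genes stood far above the level of the reference list. Sag had 14218 UMIs in cones where 2712 were expected, and its mean ratio was 5.40. Pde6g had 9814 where 2369 were expected (mean ratio 4.17), and Gngt1 had 9402 where 3200 were expected (mean ratio 2.97). All 6 retinas were above 1 for these 3 genes. The 5 reference genes themselves ranged from 0.668 (Slc24a1) to 1.46 (Reep6). Within that range lay Cngb1 at 1.27, Gnat1 at 1.20, Pde6a at 1.09, Pde6b at 0.920 and Gnb1 at 0.705, so their cone UMIs lay within the reference list's own spread. Cnga1 was below it at a mean ratio of 0.534, with 401 UMIs observed and 697 expected in all. These ratios describe the same counts as the cone and rod levels and were not tested further.

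**Figure D3:**
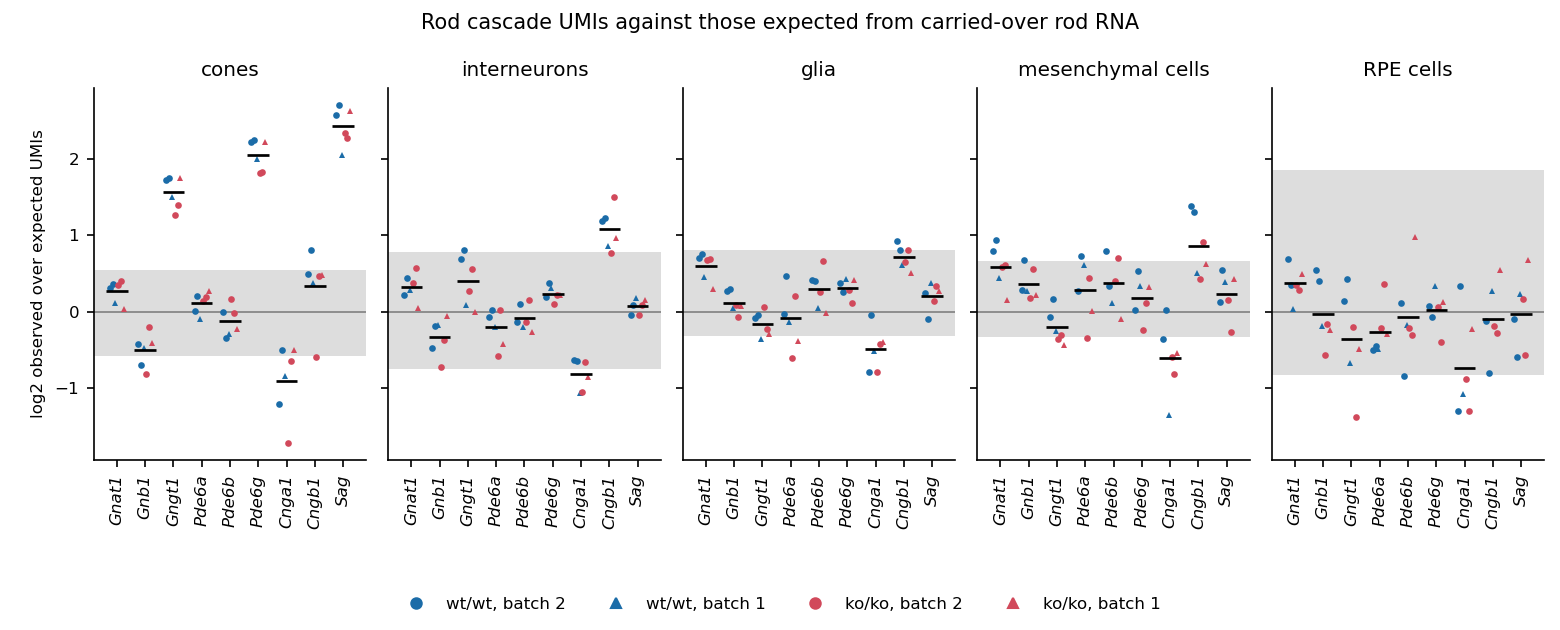
log2 of observed over expected UMIs for each rod cascade gene in cones and in the 4 types outside photoreceptors; points are retinas, black lines means of 6, and the grey band the range of the reference genes' own ratios. The means of Sag, Pde6g and Gngt1 lie above the band in cones. The mean of Cngb1 lies above it in interneurons and mesenchymal cells (ratios of 2.12 and 1.82), and that of Cnga1 below it in every class but RPE cells. Points of single retinas of both channel genes lie within it.

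Outside photoreceptors most cascade genes lay within the range of the full reference list. The mean ratios of the channel genes Cngb1 and Cnga1 left that range in some types, in opposite directions, though single retinas lay within it. In the order interneurons, glia, mesenchymal cells, RPE cells, the ratios of Sag were 1.05, 1.16, 1.17 and 0.979 and those of Pde6g 1.18, 1.24, 1.13 and 1.02. Gnat1 was at 1.25, 1.51, 1.51 and 1.29 in the same order, with all 6 retinas above 1 in each type. With the first 5 reference genes alone, however, its mean ratio in RPE cells fell below 1. Gnb1 was at 0.794, 1.09, 1.29 and 0.975. In interneurons Cngb1 was counted at 417, 428 and 339 CPM in wt/wt and 366, 529 and 373 in ko/ko retinas, 29.9% ± 4.83 of its photoreceptor level. That made 1655 UMIs where 803 were expected, with a mean ratio of 2.12, and all 6 retinas were above 1. The reference genes ranged from 0.597 to 1.72 there. Cngb1 was also above the reference range in mesenchymal cells (145 UMIs for 78.5 expected, mean ratio 1.82, range 0.794 to 1.58), and within it in glia (418 for 264, mean ratio 1.64, range 0.802 to 1.76). Over retinas the log2 ratio of Cngb1 in mesenchymal cells ran from 0.43 to 1.39, around the highest reference mean, 0.66 (Reep6). Cnga1, the partner of Cngb1 in the channel, was the lowest of the 9 genes in all 4 types, with 0.568, 0.709, 0.656 and 0.598. Its log2 ratios in interneurons ran from -1.06 to -0.63 over retinas, around the lowest reference mean, -0.75 (Rp1). Its mean ratio lay below the reference range in all but RPE cells. In RPE cells that range was wide, 0.561 to 3.63, its upper end being the mean ratio of the reference gene Slc24a1 (117 UMIs for 24.4 expected, log2 ratios of 0.43 to 2.91 over retinas), so lying within it there shows little. Without Slc24a1 the range was 0.661 to 1.18. Gnat1 at 1.53 and Pde6g at 1.20 lay above it, and Cngb1 at 1.09, Cnga1 at 0.701 and Gnb1 at 1.16 lay within it. A two-sided exact permutation test over the signs of the 6 retinas gave p = 0.0313, the smallest it can give, for 13 of the 36 pairs of gene and type. These were Gnat1 in all 4 types, Cngb1 in interneurons, glia and mesenchymal cells, and Cnga1 and Pde6g in interneurons and glia. Gnb1 reached it in interneurons, below 1, and in mesenchymal cells, above 1. Adjusted over the 36 pairs these became 0.0865, and 0 pairs passed 0.05. With that smallest p, passing after adjustment depended on how many other pairs also reached it. The 0 therefore decides nothing for a single gene. Reference genes, too, lay on 1 side of a ratio of 1 in all 6 retinas. In interneurons these were Reep6 and Rom1 above it, and Nr2e3, Slc24a1, Rp1 and Pdc below it. In glia they were Nrl, Reep6 and Rom1 above, and Rp1 and Pdc below. Reep6 in mesenchymal cells and Slc24a1 in RPE cells also lay above. Reaching the smallest p thus does not set a cascade gene apart from the reference list.

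Counted cell by cell, a UMI of the cascade was common in every type. Without correction for depth, the median over the 9 genes of the share of cells with a UMI was 81.2% in photoreceptors, 73.3% in interneurons, 73.0% in glia, 72.4% in mesenchymal cells and 65.8% in RPE cells. Those types differ in depth, with medians of 428 UMIs per photoreceptor and 1844 per interneuron. After each cell was thinned to 400 UMIs the medians were 86.6% in photoreceptors and 32.1%, 33.1%, 32.0% and 33.4% in the other 4 types. The 19409 photoreceptors under 400 UMIs were left out and 22950 kept. In cones the thinned shares were 93.1% for Sag, 84.9% for Pde6g and 83.8% for Gngt1, and 7.57% to 32.8% for the other 6 genes. Cngb1 was seen in 15.2% of thinned interneurons and in 10.3% of thinned cones. On the 8 genes other than Gnb1, the lowest 5% of rods had up to 1.49% of their UMIs, and 7.54% of interneurons, 8.17% of glia, 8.94% of mesenchymal cells and 7.76% of RPE cells reached that level. The cells that reached it were shallower than the rest of their type, with medians of 1635 against 1854.5 UMIs in interneurons, 963 against 1713 in glia, 524.5 against 1946 in mesenchymal cells and 612 against 1171 in RPE cells. The part of depth in these shares was not tested.

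In edgeR's test without a batch or replicate term, no cascade gene passed the threshold for Dram2 genotype in any class. In RPE cells this depended on the fit. With the batch as a term limma-voom called Gnb1 (adjusted p = 0.0216) and Gngt1 (0.0262), 2 of the 5 cascade genes tested. The same fit called 5 of 308 genes (1.62%). With the replicate number as a block edgeR called Gnb1 (adjusted p = 0.0476), and its count over all genes is given further on. Without either term edgeR called 0 genes at an adjusted p under 0.05 in photoreceptors, rods, cones, interneurons, glia, mesenchymal cells or RPE cells, so the background is 0% and 0 of the cascade genes were called. Of the 8 cone counterparts and the 11 further cascade genes, 0 were called in photoreceptors, with log2 differences of -0.59 to -0.12 and of -0.46 to 0.26. At an unadjusted p under 0.05 edgeR gave 109 of 13053 genes in photoreceptors, 89 in rods, 61 in cones, 86 in interneurons, 51 in glia, 150 in mesenchymal cells and 11 of 308 in RPE cells, with 1 cascade gene in glia and 1 in RPE cells. limma-voom without a batch term called 0 genes and had 9 to 134 at an unadjusted p under 0.05, and DESeq2 called 1 gene, in RPE cells and no cascade gene, with 5 to 87 unadjusted. In the study's own limma-voom comparison, genes were called by genotype in interneurons, mesenchymal cells and RPE cells, and none in photoreceptors. Those in interneurons included the cone counterparts Arr3 and Pde6h, both lower in ko/ko. The labels do not say whether the retinas of a genotype came from separate mice, so the p-values measure the spread between these samples.

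In photoreceptors the 9 log2 differences of ko/ko against wt/wt were all above 0, with a median of 0.22 against -0.01 over all genes tested, although that of Cnga1 turned to -0.058 without ko/ko replicate 3 and was 0.44 without wt/wt replicate 3. Gngt1 was counted at 9375, 9814 and 11940 CPM in wt/wt and 15671, 12231 and 12307 in ko/ko photoreceptors, a log2 difference of 0.39 (SE 0.243, edgeR adjusted p = 0.998). Gnb1 was at 8385, 9239 and 10481 CPM in wt/wt and 12003, 10642 and 11722 in ko/ko, a log2 difference of 0.32 (SE 0.229, adjusted p = 0.998). For these 2 transducin genes each ko/ko value was above each wt/wt value, which also held for 1.83% of the 13053 genes tested, and 3.72% of them were lower in all ko/ko retinas. The groups of the other 7 genes overlapped. Pde6g had 6002, 6159 and 11341 CPM in wt/wt and 9789, 7591 and 11130 in ko/ko, and Gnat1 had 4451, 4377 and 8214 against 6573, 5253 and 7304, so the wt/wt retina of batch 1 was the highest of all 6 for both. Their log2 differences were 0.31 (SE 0.326) and 0.19 (SE 0.316). Sag was at 0.25, Cnga1 at 0.22, Pde6b at 0.17, Cngb1 at 0.09 and Pde6a at 0.06, the last with 1394, 1384 and 1353 CPM in wt/wt and 1305, 1439 and 1490 in ko/ko photoreceptors.

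**Figure D4:**
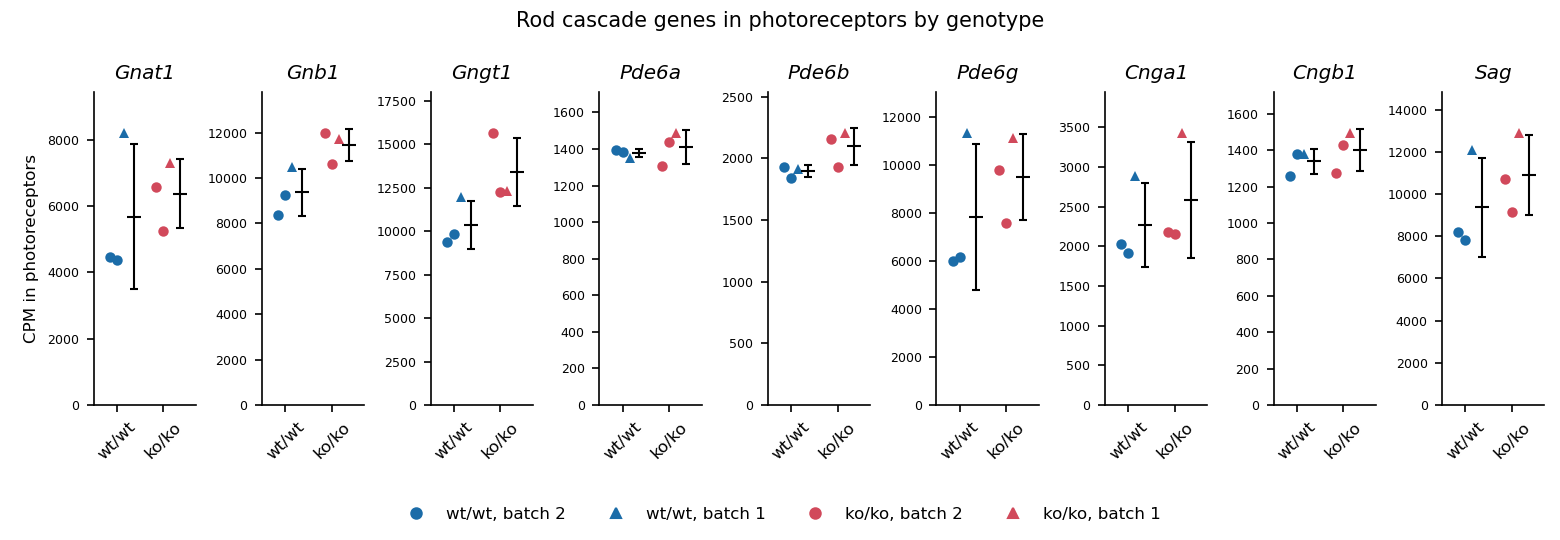
CPM of each rod cascade gene in photoreceptors by genotype, one point per retina (triangles batch 1), with the mean and SD of 3 retinas beside the points; every axis starts at 0. Only Gnb1 and Gngt1 show no overlap, and the batch 1 retina is the highest wt/wt value for every gene but Pde6a and Pde6b.

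Several of these genes differed more between the batches than between the genotypes. Batch 1 exceeded batch 2 on the log2 scale by 0.63 for Pde6g, 0.61 for Cnga1, 0.60 for Gnat1 and 0.49 for Sag, and by 0.15 or less for the other 5 genes. Within batch 2 (2 retinas per genotype) the genotype difference was 0.53 for Gngt1, 0.50 for Pde6g, 0.41 for Gnat1, 0.36 for Gnb1 and 0.31 for Sag. Within batch 1 (1 retina per genotype) it was 0.04, -0.03, -0.17, 0.16 and 0.10 for the same genes. Of the other 4 genes, Cnga1 (0.14 in batch 2 and 0.25 in batch 1), Pde6b (0.11 and 0.20) and Cngb1 (0.03 and 0.12) were above 0 in both, and Pde6a was at -0.02 and 0.14. The sign was thus shared by both batches for 6 of the 9 genes and not for Pde6g, Gnat1 and Pde6a. Malat1 took 17.7%, 17.1% and 8.80% of photoreceptor UMIs in wt/wt and 12.0%, 14.9% and 11.0% in ko/ko retinas, and its part in the genotype differences was not tested. The genotype difference in cones was set against that in rods by the interaction term. It ran from -0.30 (Cngb1, SE 0.203) to 0.22 (Pde6b, SE 0.206) over the 9 genes. edgeR called 0 of the 9 and 0 of 10807 genes for it, a background of 0%, and 402 genes but 0 cascade genes had an unadjusted p under 0.05.

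In RPE cells 0 of the 5 cascade genes that could be tested passed the threshold in edgeR's test with genotype as the only term. Gnb1 alone had each ko/ko value below each wt/wt value. The class is small, with 10 to 25 cells and 17073 to 35968 UMIs per retina, and 5 of the 9 genes passed the filter on low counts. All 5 had log2 differences below 0, with a median of -0.56 against -0.01 over the 308 genes tested. Sag was nearest to 0 at -0.17, with 789 to 2113 CPM in wt/wt and 710 to 2109 in ko/ko, and Gnat1, Gngt1 and Pde6g overlapped between genotypes too. Of the 4 that did not pass, Pde6b averaged 271 CPM over the wt/wt retinas and 290 over the ko/ko retinas. In the same order these values came to 159 and 158 for Pde6a, 240 and 172 for Cnga1 and 196 and 167 for Cngb1, and each of the 4 genes rested on 41 UMIs or fewer. Gnb1 had 2395, 1880 and 1362 CPM in wt/wt and 984, 1109 and 996 in ko/ko RPE cells, from 64, 50 and 49 against 22, 25 and 17 UMIs. The log2 difference was -0.94 (SE 0.274), with an unadjusted p of 0.00699 and an adjusted p of 0.808 in edgeR. Gngt1 had 2020, 2030 and 1112 CPM in wt/wt and 1655, 532 and 879 in ko/ko RPE cells, a log2 difference of -0.81 (SE 0.415, edgeR adjusted p = 0.910). Gnb1 did not overlap between genotypes, which also held for 4.55% of the 308 genes in its direction and 6.17% in the other. With the batch as a covariate limma-voom called both genes, Gnb1 at -0.91 (adjusted p = 0.0216) and Gngt1 at -0.95 (adjusted p = 0.0262). With the same covariate edgeR gave adjusted p of 0.0714 and 0.331 and called 0 of the 5 cascade genes and 0.974% of the 308. With the replicate number as a block edgeR called Gnb1 (adjusted p = 0.0476), and 4 genes in all. Gnb1 and Gngt1 are among the 5 RPE genes that the study's own limma-voom comparison of these samples called, both lower in ko/ko. Their direction is therefore not independent evidence.

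The rod reference list moved with these genes. It stood at 19.6%, 15.4% and 14.9% of its photoreceptor level in wt/wt RPE cells and at 12.2%, 11.7% and 10.1% in ko/ko RPE cells, without overlap. Without Slc24a1 it stood at 15.4%, 11.9% and 14.1% in wt/wt and 11.2%, 7.91% and 9.96% in ko/ko, again without overlap. Malat1 was also lower in each ko/ko retina, with 1.90%, 1.28% and 5.20% of RPE UMIs in wt/wt and 0.962%, 0.577% and 0.720% in ko/ko, and its part in these differences was not tested. Set against that list, the log2 ratio of observed to expected UMIs of Gnb1 was 0.25 ± 0.388 (SD, n = 3) in wt/wt and -0.32 ± 0.212 in ko/ko, a difference of -0.57 (two-sided exact permutation test, p = 0.2). For Gngt1 the ratio was -0.04 ± 0.565 and -0.69 ± 0.616, a difference of -0.66 (exact permutation p = 0.3). The smallest p that 3 against 3 retinas allow is 0.10. With Slc24a1 left out of the list the differences were -0.60 and -0.69, with the same exact p. Gnb2, a widely used relative of Gnb1, was at 241 ± 131 CPM in RPE cells and at 29.3 ± 11.1 in photoreceptors (SD, n = 6).

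Rods also differed in Malat1, a long RNA that stays in the nucleus. Rods of each retina were split at the median share of Malat1, and the cascade was compared over UMIs other than Malat1. Malat1-high rods were shallower, with medians of 239 to 382 UMIs per cell against 439.5 to 686 in Malat1-low rods. Gngt1 was at 8347, 8262 and 7540 CPM in wt/wt and 12158, 8565 and 6966 in ko/ko Malat1-high rods. In Malat1-low rods it was at 14296, 15236 and 17350 in wt/wt and 22864, 19123 and 17882 in ko/ko. The low rods were above the high rods in every retina. edgeR with the retina as a block called 7 of the 9 genes lower in Malat1-high rods, against a background of 24.1% of 10449 genes lower and 24.9% higher. With total UMIs in place of TMM factors, 5 were called lower and 2 higher, where 1547 of the 10449 genes were lower and 5208 higher.

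The size of the difference depended on the subunit, and the calls of the smaller differences on the scaling. Total UMIs in place of TMM factors moved the median of all genes from 0.07 to 0.33 on the log2 scale and the share of called genes that were higher from 50.9% to 77.1%, so differences are given relative to that median, first with TMM. Gngt1 was lower by -1.37 and -1.37, Pde6g by -1.11 and -1.11, Gnb1 by -1.09 and -1.09, Gnat1 by -0.75 and -0.75, and Sag by -0.53 and -0.53. These 5 genes were called lower under both scalings. Cngb1 (-0.43 and -0.43) and Cnga1 (-0.36 and -0.36) were called with TMM, at log2 differences of -0.36 and -0.30, but not with total UMIs, at -0.10 (edgeR adjusted p = 0.112) and -0.04 (adjusted p = 0.579). Pde6b and Pde6a, the catalytic pair, were nearest to the median, at -0.17 and -0.12 under both, and were not called with TMM (log2 -0.10 and -0.06, edgeR adjusted p = 0.122 and 0.442). The shift of the median with total UMIs carried both above 0, to 0.16 (adjusted p = 0.011) and 0.20 (adjusted p = 0.00156), while their place relative to the median stayed the same. On total UMIs Cnga1 was higher in the Malat1-high rods of both batch 1 retinas, by 0.15 each, and lower in the 4 retinas of batch 2. Of the 11 further cascade genes, 5 were lower with TMM, among them Rcvrn, a calcium sensor of photoreceptors, by -0.97, and Pdc, which binds transducin beta and gamma subunits, by -0.71. Gucy2f and Rgs9bp were higher, by 0.23 and 0.16.

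**Figure D5:**
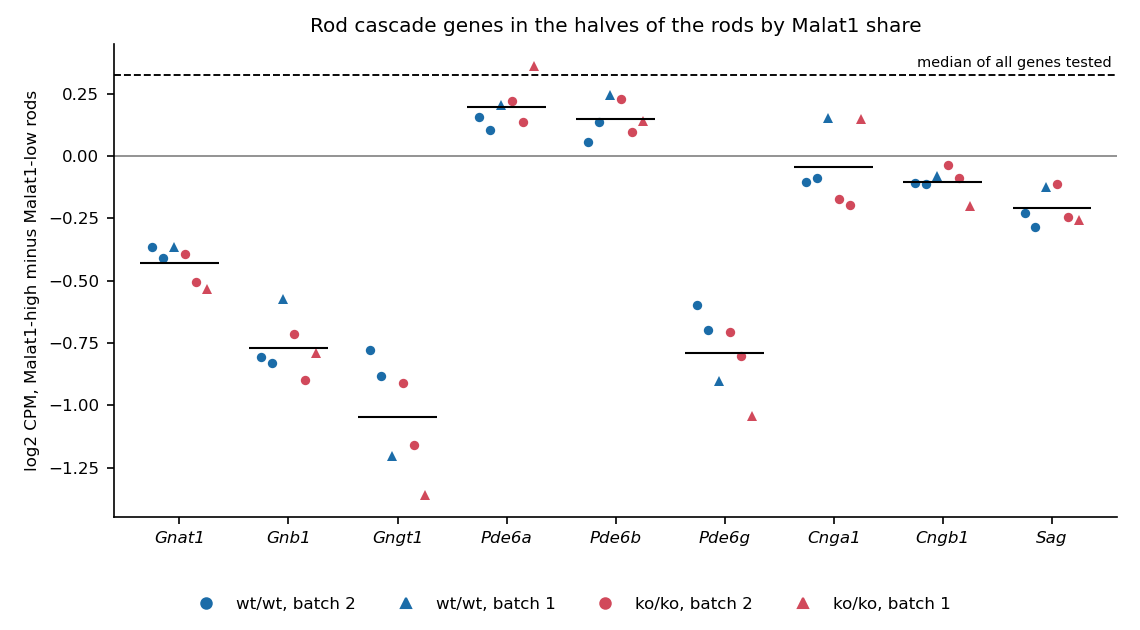
log2 CPM (UMIs other than Malat1, scaled to their total) in Malat1-high minus Malat1-low rods of each retina for the 9 rod cascade genes; the dashed line is the median of all genes on that scaling, 0.33. Gngt1, Pde6g and Gnb1 lie lowest, while Pde6a and Pde6b lie above 0 on this scaling and below 0 with TMM factors.

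Genes outside the list with a like pattern were sought over the 30 sums of 6 retinas and 5 types. Likeness was Pearson's r of log2(CPM + 1) with the mean of the 8 cascade genes other than Gnb1. Of the 5 genes with the highest r, those reported are Prph2, an outer segment disc protein (0.988), Guca1a (0.983), Rtbdn (0.971) and Lbhd1 (0.970). Gnb1 itself had an r of 0.962. These values describe points that share retinas, depth and carried-over rod RNA, and photoreceptors against the other types set most of the spread.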

How the data were processed

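Exonic reads were aligned to mm10 (GRCm38) by the authors with Cell Ranger 3.1.0. The deposited values are UMI counts as counted, with no scaling, beside a table that gives each cell its sample, genotype, batch and type. The types are Louvain clusters made in Seurat (LogNormalize, CCA over batches), and the study's own genotype comparison used limma-voom on sums per sample. Every cell column could be tied to a retina, leaving 0 unused. Gene symbols and coordinates came from GENCODE M21 (233 genes without a symbol) and upstream sequences from RefSeq.

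The 9 cascade genes and all other lists were chosen with earlier results of these data known. UMIs were summed per retina and class and tested over the whole table with edgeR (glmQLFit and glmQLFTest, TMM, filterByExpr, Benjamini-Hochberg over all genes, adjusted p under 0.05). Genotype was the only term, and the retina was a block in comparisons of cells of the same retinas. CPM are UMIs scaled to a total of 1000000 per sum, and floors and shares cover counting error only. Observed and expected UMIs were compared after adding 0.5 UMI to both. Genes named are the 9 members, their 8 cone counterparts, 11 further cascade genes, the reference, cone and marker lists, Gnb2 and Gnb4 (0.609 CPM in photoreceptors), Malat1 and the genes most like the cascade. Some genes that these rules take in are not reported here.

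Other settings were RLE factors, total UMIs, limma-voom, DESeq2, no low-count filter, the batch or the replicate number as a term, stricter or looser sets of cells, other limits for cones, other depths of thinning, a shorter reference list, a pseudocount of 1, and each retina left out in turn. Cells with 500 or more UMIs and at most 10% mitochondrial UMIs formed the stricter set. No doublets were removed. Each test was tested on simulated data. Total UMIs as a scaling was chosen after seeing the data, as were a reference list without Slc24a1 and RLE factors and left-out retinas for the interaction.

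Tests ran in R 4.3.3 with DESeq2 1.42.0, limma 3.58.1 and edgeR 4.0.16, and sums and figures in Python 3.11.15 with pandas 2.3.3, scipy 1.17.1, matplotlib 3.10.9 and numpy 2.4.6.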

Additional observations from a re-analysis of the deposited data

Results flagged for a closer look

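In RPE cells of ko/ko replicate 2, the log2 ratio of observed to expected UMIs of Pde6a was 0.36, whereas the other 5 retinas lay between -0.50 and -0.21, so this retina stood apart from the rest. The ratio rests on 24 UMIs of Pde6a over all 6 retinas. In cones of ko/ko replicate 1, the log2 ratio of Cngb1 was -0.59, and the other 5 retinas lay between 0.38 and 0.80. That retina had the fewest cones, 106, and its Cngb1 level in cones was 153 CPM. These 2 came from 63 sets of 6 retinas that were looked at, and chance alone flags about 1 in 20 such sets.

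Cells without a type entered no comparison. The 9 cascade genes took 6.27% of the UMIs of these cells, with a range of 4.97% to 7.34% over retinas. Photoreceptors had 5.43% and rods 5.72%, and the other 4 types averaged 0.689% to 0.835%. The rod reference list stood in the untyped cells at 109.9% ± 5.20 (SD, n = 6) of its photoreceptor level.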

How the results depend on the processing

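The call of 0 cascade genes by genotype in RPE cells became 2 (Gnb1 and Gngt1) with the batch as a covariate in limma-voom, which called 5 of 308 genes, and 1 (Gnb1, adjusted p = 0.0476 in edgeR) with the replicate block, which called 4, and the cause was not tested. Same-numbered retinas had correlations of -0.07, 0.54 and 0.52, so the number was not taken as a pairing, and the replicate block changed no other count. The other 110 of 112 counts of called genes by genotype stayed the same, and 143 of 144 log2 differences in photoreceptors kept their sign, though not their size. The exception was Cnga1, at 0.22 with all retinas, -0.058 without ko/ko replicate 3 and 0.44 without wt/wt replicate 3. Of the cone and rod comparisons 159 of 160 kept their call, the exception being Sag without the retina block (-0.40). Counts for Malat1, over both directions, were 7 or 8 under all 10 alternatives. With total UMIs, however, 5 genes were lower and 2 (Pde6a and Pde6b) higher, in place of 7 lower. That scaling called 5208 of 10449 genes higher and 1547 lower. Relative to the median of all genes, Pde6a stayed at -0.12 and Pde6b at -0.17 on the log2 scale. All 8 counts for the interaction stayed the same.

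Ratios of observed to expected UMIs kept their direction in 442 of 462 cases. On the log2 scale the strict reference list reversed Pde6b in interneurons (0.093), Gnb1 in glia (-0.047), and Gnat1 (-0.059) and Pde6g (-0.41) in RPE cells. The stricter set of cells reversed Sag in interneurons (-0.047), Gnb1 in glia (-0.018) and Pde6g in RPE cells (-0.042), and leaving out the 5% of cells with the most UMIs reversed Sag in RPE cells (0.065). A list without Slc24a1, chosen after seeing the data, reversed Gnb1 (0.21), Pde6b (0.16), Cngb1 (0.12) and Sag (0.21) in RPE cells. With each retina left out in turn, the ratio ran from -0.19 to 0.026 for Pde6a in glia, and in RPE cells from -0.15 to 0.069 for Gnb1, -0.28 to 0.080 for Pde6b, -0.041 to 0.11 for Pde6g, -0.23 to 0.045 for Cngb1 and -0.17 to 0.084 for Sag. None of these had an adjusted p under 0.05 in the exact permutation test, in which no pair could pass on its own. Gnat1 in RPE cells was, however, among the pairs at the smallest p of that test, 0.0313. Shares of cells with a UMI followed depth, with medians of 81.2% in photoreceptors without thinning, and in interneurons, glia, mesenchymal and RPE cells of 51.0%, 52.2%, 50.9% and 52.8% at 800 UMIs and 73.3%, 73.0%, 72.4% and 65.8% without thinning. RPE cells, with at most 35968 UMIs per retina, set the depth limit for genotype.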
